A study of Mus musculus with 8 samples.

Results

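Mature migratory dendritic cells were examined in the first single-cell RNA-sequencing (scRNA-seq) experiment of the study, in which CD45+ leukocytes sorted from B16-OVA tumors were profiled with enrichment for CD8+ TILs. They were selected by raw unique molecular identifier (UMI) counts, as cells with at least 2 UMIs of Fscn1, at least 1 UMI of Ccr7, Ccl22 or Cacnb3, no UMI of Cd3e, Cd79a or Ncr1 and fewer than 2 of Siglech. Of 12828 cells that passed the quality filter, 76 met this gate, or 0.592% (95% Clopper-Pearson interval 0.467 to 0.741). Fscn1, Ccr7, Ccl22 and Cacnb3 chose the cells, so their levels are a description and were not tested.

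All libraries came from C57BL/6 mice with tumors of B16-OVA, a melanoma line that carries ovalbumin. Except for the non-treated group, mice received adoptive transfer (ACT) of OT1 CD8+ T cells, which recognize an ovalbumin peptide, without prior lymphodepletion. The transferred cells were untransduced, or secreted a PD-1 decoy (PD1d, the PD-1 ectodomain fused to a human IgG4 Fc) with IL-2v, an IL-2 variant that does not bind CD25, or PD1d with IL-33, an alarmin. Orthogonal ACT, labelled PD1d/IL-2v/IL-33, was a mixture of both engineered products in equal parts. Of the 8 libraries, 1 came from non-treated tumors (labelled day 5) and 2 from untransduced ACT (days 5 and 12 after transfer). PD1d/IL-2v ACT and PD1d/IL-33 ACT were each taken on day 12 only, and orthogonal ACT on days 5, 12 and 26. Tumors of 5 mice were pooled per condition, as the study's methods state for days 5 and 12, and no condition was repeated on a day. Differences between libraries therefore have no replicate check, and their intervals cover counting error only.

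Dendritic cells take up antigen in tissue, mature, and then move along CCL19 and CCL21 gradients through the receptor CCR7 to the T-cell zones of lymph nodes. Maturation reorganizes the actin cytoskeleton, in which the actin-bundling protein fascin (Fscn1) takes part, brings costimulatory ligands and chemokines such as CCL22 to the fore, and is accompanied by checkpoint ligands including PD-L1 (Cd274). The non-canonical NF-kB pathway, in which the kinase NIK (Map3k14) leads to processing of the Nfkb2 product and release of RelB, is known to act downstream of CD40 in such cells.

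Of the 5 markers given for these cells, Fscn1, Ccr7 and Ccl22 chose them, and only Il4i1 and Il12b had no part in the gate. The markers were chosen with earlier results of these data known, so neither is an independent check. Il4i1, an amino acid oxidase, was found in 68 of the 76 cells at 755 CPM (UMIs of the gene or list for every 1000000 UMIs of the same cells). It was at 39.5 CPM in 142 conventional dendritic cells gated by Cd209a or by Xcr1 and Clec9a, 15.0 in 343 macrophages gated by C1qa, C1qb and C1qc, and 2.35 in 7719 cells with a Cd3e UMI. Il12b was found in 19 of the 76 cells at 388 CPM, against 12.6, 5.27 and 0.141 CPM. None of the 76 cells had a UMI of C1qa, C1qb, C1qc, Cd209a or Xcr1.

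Markers of other cell types were low but not all absent. The 10 monocyte and macrophage markers summed to 176 CPM, against 11893 in macrophages, with 7 detected and Lyz2 the most abundant (48 UMIs in 10 cells). By library this sum was 0 in non-treated tumors, 86.7 in untransduced ACT at day 5, 912 in PD1d/IL-2v ACT and 0 in PD1d/IL-33 ACT. It was 43.7, 7.99 and 74.8 in orthogonal ACT at days 5, 12 and 26. The 8 T-cell markers summed to 64.0 CPM, against 5177 in cells with Cd3e, 18.9 in conventional dendritic cells and 14.4 in macrophages. By library this sum was 56.4 in non-treated tumors, 113 in untransduced ACT at day 5, 50.1 in PD1d/IL-2v ACT, 0 in PD1d/IL-33 ACT, and 8.74, 32.0 and 102 in orthogonal ACT at days 5, 12 and 26. A T-cell marker UMI was found in 19 of the 76 cells. Cd8a led with 26 UMIs in 9 cells, and Cd3e, which the gate excluded, and Cd4 were at 0. Mast cell and basophil markers were at 0, and the 5 melanoma markers had 4 UMIs in 3 cells. The median depth was 8920 UMIs and 2361 genes per cell, against 11765.5 UMIs in conventional dendritic cells, 10636 in macrophages and 5641 in cells with Cd3e.

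A single member in the PD1d/IL-2v ACT library stood apart. Of its 14212 UMIs, 104 were of Cd14, 48 of Cebpb and 331 of Il1b, out of 391 Il1b UMIs in all 9 members of that library. It had 2 UMIs of Fscn1, 7 of Ccr7 and none of Il4i1 or C1qa, and its doublet score was not among the highest. Without this cell the macrophage marker sum of that library was 58.4 CPM in place of 912, and that of all members 52.0 in place of 176. The comparison with that library is given with and without this cell.

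At the edge of the gate, 3 members had exactly 2 Fscn1 UMIs and 71 had more than 5. The level of Il4i1 was 175 CPM in those 3 and 788 CPM in the 71. Just outside, 1 cell had 1 Fscn1 UMI and otherwise met the gate, with Ccr7 at 3951 CPM and Il4i1 at 0. A further 9 cells had Fscn1 and a partner gene but also a UMI of an excluded gene.

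The number of members was 6 of 276 cells in non-treated tumors (2.17%, 0.802 to 4.67) and 14 of 1953 in untransduced ACT at day 5 (0.717%, 0.392 to 1.20). Orthogonal ACT gave 13 of 2387 at day 5 (0.545%, 0.290 to 0.930), 15 of 1643 at day 12 (0.913%, 0.512 to 1.50) and 17 of 3655 at day 26 (0.465%, 0.271 to 0.744). PD1d/IL-2v ACT gave 9 of 1946 (0.462%, 0.212 to 0.876) and PD1d/IL-33 ACT 2 of 766 (0.261%, 0.0316 to 0.940). Untransduced ACT at day 12 had 0 of 202 cells, whose Clopper-Pearson interval reaches 1.81% (3 cells of 202 would be 1.49%). The intervals of the 7 libraries with members overlapped except that of non-treated tumors, whose lower bound lay above the upper bound of orthogonal ACT at day 26.

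The sort favoured CD8+ T cells, so the share of all cells also follows the number of T cells. Of cells without a Cd3e UMI, members were 4.62% in non-treated tumors, 1.45% in untransduced ACT at day 5, 0.969% in PD1d/IL-2v ACT and 0.826% in PD1d/IL-33 ACT, and the interval of the 0 in untransduced ACT at day 12 reaches 3.73% (3 cells would be 3.09%). In orthogonal ACT the share was 0.822% (0.439 to 1.40) at day 5, 2.30% (1.29 to 3.77) at day 12 and 3.31% (1.94 to 5.25) at day 26. Days 5 and 26 did not overlap on this scale, whereas they did over all cells. Of gated myeloid cells (the 3 classes together) members were 6.67% (3.60 to 11.1) in orthogonal ACT at day 5, a library with 164 macrophages, against 22.6% (12.9 to 35.0) in untransduced ACT at day 5, with 30 macrophages. The number of members per conventional dendritic cell was close in these libraries, 0.722 and 0.778.

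**Figure D1:**
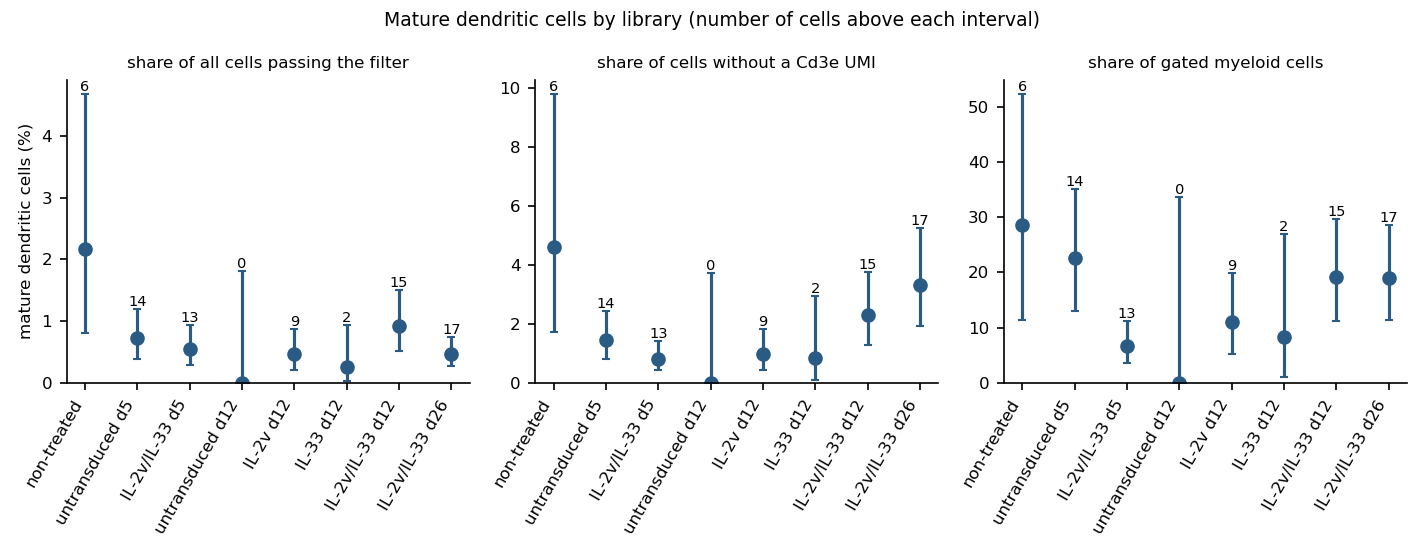
Share of mature migratory dendritic cells in each library (y axis, %), of all cells passing the filter (left), of cells without a Cd3e UMI (middle) and of gated myeloid cells (right). Points are shares, bars are 95% Clopper-Pearson intervals, the number of cells stands above each interval, and library names leave out PD1d, so that IL-2v/IL-33 is orthogonal ACT. The order of the orthogonal ACT libraries depends on the denominator, with 0.545%, 0.913% and 0.465% of all cells but 0.822%, 2.30% and 3.31% of cells without Cd3e at days 5, 12 and 26.

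Mature cells were compared with conventional dendritic cells and with macrophages of the same libraries, on UMIs summed per library and class in the 6 libraries with at least 5 cells of each class. PD1d/IL-33 ACT and untransduced ACT at day 12 did not enter. With edgeR's quasi-likelihood test and the library as a block, 505 of 1963 genes (25.7%) were higher and 477 (24.3%) lower in mature cells than in conventional dendritic cells at an adjusted p of 0.05. Against macrophages, 525 of 1989 genes (26.4%) were higher and 535 (26.9%) lower, 53.3% in all. The median log2 fold change over all genes was −0.01 in each. Both comparisons use the same mature cells. The genes of the gates were left out, but genes that go with them in a cell were not, and a gene detected in a single class could enter the test only by being high there. Counts within a list are therefore read beside the share called among all genes.

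Of 22 maturation and migration genes listed, 3 had served in the gate and 16 of the others could be tested. All 16 were higher in both comparisons (25.7% and 26.4% of all genes were). The list was chosen with earlier results of these data known, and its genes can go with the gate genes, so this count is a description. The median log2 fold change was 4.63 against conventional dendritic cells and 4.97 against macrophages. Socs2, a suppressor of cytokine signalling, stood at 719 CPM against 10.3 in conventional dendritic cells and 14.1 in macrophages, with log2 fold changes of 5.99 ± 0.35 (SE) and 6.13 ± 0.46 (edgeR adjusted p = 1.17e-07 and 5.28e-07). Il4i1 stood at 755 CPM against 39.5 and 15.0. Cd63, a tetraspanin of endosomes and lysosomes, stood at 877 CPM against 6.87 and 101. Marcksl1, which binds actin and membranes, stood at 1448 CPM against 117 and 192, and Tbc1d4, a Rab GTPase-activating protein, at 1158 CPM against 32.6 and 0.832. Dnase1l3, Laptm4b and Bcl2l14 did not pass the filter on low counts.

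**Figure D2:**
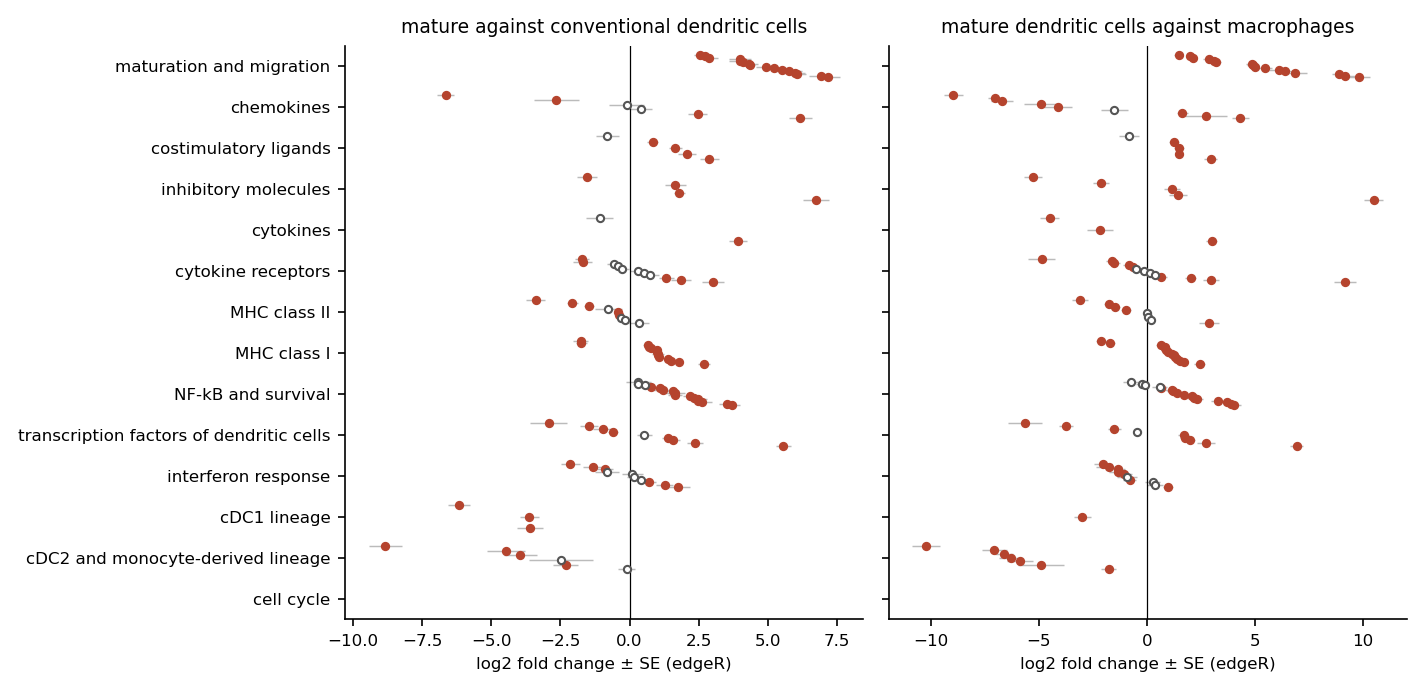
Log2 fold change of each tested gene of 14 lists (x axis, edgeR, bars ± SE) in mature against conventional dendritic cells (left) and against macrophages (right), over 6 libraries. Filled points passed an adjusted p of 0.05 and open points did not. All 16 tested maturation genes and 12 of 14 MHC class I genes lay on the positive side and passed in both panels, whereas no cell cycle gene could be tested. Among all genes 25.7% (left) and 26.4% (right) were higher, and the lists were chosen with earlier results of these data known.

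Of 16 NF-kB and survival genes tested, 13 were higher, 0 lower and 3 not called against conventional dendritic cells, and 12 higher, 0 lower and 4 not called against macrophages (25.7% and 26.4% of all genes were higher). The median log2 fold changes were 1.64 and 1.56. Of those not called against macrophages, Tnfaip3, Nfkbia and Mcl1 had log2 fold changes of −0.71, −0.23 and −0.09. Genes of the non-canonical arm were among those higher. Relb stood at 618 CPM against 63.0 in conventional dendritic cells and 49.1 in macrophages (log2 fold changes 3.52 ± 0.28 and 3.88 ± 0.35, edgeR adjusted p = 9.81e-07 and 1.86e-06). Nfkb2 stood at 284 CPM against 63.0 and 64.0 (2.32 ± 0.21 and 2.33 ± 0.27). Map3k14 stood at 284 CPM against 55.5 and 23.6, and Traf1, a signalling adaptor of TNF receptors, at 1196 CPM against 246 and 134. Birc2, the ubiquitin ligase cIAP1 that restrains NIK, was also higher, at 365 CPM against 25.2 in conventional dendritic cells. The survival genes Bcl2a1b (847 CPM against 168 and 259) and Bcl2a1d (816 against 187 and 183) were higher too, but are near-identical copies whose reads can be split between them. Nfkbia, the canonical inhibitor IkB-alpha, stood at 1320 CPM against 1037 and 2161 and passed in neither. Nfkb1 passed narrowly against conventional dendritic cells (log2 fold change 0.76 ± 0.30, adjusted p = 0.0487, edgeR).

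Nfkb2 is itself a known target of NF-kB. Its promoter is shown because Nfkb2 was called in both comparisons. The RefSeq window from 250 bases before to 50 after the start (GRCm38.p6, chr19:46304487-46304786, plus strand), 1 of 3 starts listed for the gene, held 3 matches to the 10-base kappaB consensus, 2 of which overlap. Capitals mark the matches.
Nfkb2: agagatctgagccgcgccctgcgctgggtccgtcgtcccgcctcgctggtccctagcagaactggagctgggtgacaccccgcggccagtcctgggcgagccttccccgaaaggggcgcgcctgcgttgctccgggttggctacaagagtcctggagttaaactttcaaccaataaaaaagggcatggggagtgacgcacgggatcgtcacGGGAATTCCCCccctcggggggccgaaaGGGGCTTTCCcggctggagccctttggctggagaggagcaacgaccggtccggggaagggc
For the 17 listed genes, 15 had a promoter in the table, 21 promoters in all, and 8 of these 21 (38.1%) held a match on either strand, against 2779 of 32851 promoters (8.46%) of all genes. The 8 belonged to Nfkb2 (3 of its 3 starts), Nfkbia, Nfkbie, Rel, Bcl2l1 and Tnfaip3, of which Nfkbia and Tnfaip3 were called in neither comparison and Bcl2l1 could not be tested. The windows listed for Map3k14, Traf1 and Birc2 held no match.

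Of 5 costimulatory ligands tested, 4 were higher and 0 lower in each comparison (25.7% and 26.4% of all genes were higher). Cd80 stood at 179 CPM against 25.8 in conventional dendritic cells and 24.9 in macrophages (log2 fold changes 2.89 ± 0.33 and 2.96 ± 0.31, edgeR adjusted p = 1.69e-05 and 6.63e-06). Cd40, the receptor for CD40 ligand on T cells, stood at 330 CPM against 85.3 and 191, Cd86 at 348 against 124 and 134, and Cd83 at 1371 against 844 and 481. Against conventional dendritic cells the call of Cd83 was lost without the library block (edgeR adjusted p = 0.149) and with libraries of at least 10 cells of both classes (0.0620). Tnfsf9 (4-1BB ligand) stood at 124 CPM against 297 and 285 and was not called.

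Among inhibitory molecules, 3 of 4 tested were higher and 1 was lower than in conventional dendritic cells (25.7% and 24.3% of all genes). Against macrophages 3 of 5 were higher and 2 lower (26.4% and 26.9% of all genes). Cd274 stood at 546 CPM against 167 and 379, and Pdcd1lg2 (PD-L2) at 217 against 72.1 and 123. Against macrophages both calls were lost without orthogonal ACT at day 26 (edgeR adjusted p = 0.0615 and 0.0513), and that of Cd274 also without the library block (0.0709). Cd200, whose product binds an inhibitory receptor on myeloid cells, stood at 550 CPM in mature cells and 5.73 in conventional dendritic cells, and was at 0 UMIs in macrophages, which makes it at least 661-fold higher than a floor of 3 UMIs over that class. Tgfb1 was lower, at 82.9 CPM against 258 and 400. Lgals9 was lower than in macrophages (4.36 CPM against 176). Ido1 was found in 2 of the 76 cells and Ido2 in none.

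Of 6 chemokines tested against conventional dendritic cells, 2 were higher, 2 lower and 2 not called, near the shares of all genes (25.7% and 24.3%). Against macrophages 3 of 9 were higher, 5 lower and 1 not called (26.4% and 26.9% of all genes). Ccl5, a chemokine that attracts T cells, stood at 4612 CPM against 62.4 and 269 (log2 fold changes 6.18 ± 0.41 and 4.32 ± 0.39, edgeR adjusted p = 2.44e-07 and 1.98e-06). Cells with Cd3e had 5835 CPM of Ccl5, so T-cell RNA carries this gene too, and its part in the members' level was not tested. In the libraries that entered the test, conventional dendritic cells had 10.5 to 164 CPM of Ccl5 and macrophages 108 to 605. Cxcl16, the ligand of CXCR6, stood at 918 CPM against 202 and 274. Ccl4, Cxcl10 and Ccl2 were among those lower. Ccl4 stood at 10.2 CPM against 1154 and 1956, Cxcl10 at 88.8 against 551 and 1490, and Ccl2 at 1.45 against 1099 in macrophages. Cxcl9, at 275 CPM against 381 and 1023, was called in neither. Ccl22, a gate gene, was at 1266 CPM against 116 and 10.5. Ccl19 was at 0 UMIs in all 3 classes.

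Of 14 MHC class I genes tested, 12 were higher and 2 lower in each comparison. Among all genes 25.7% were higher and 24.3% lower against conventional dendritic cells, and 26.4% and 26.9% against macrophages. B2m stood at 5153 CPM against 2158 and 3563, H2-K1 at 3199 against 1314 and 1681, H2-Q7 at 864 against 144 and 195 and the proteasome activator Psme2 at 1686 against 554 and 529. H2-Q7 and other class Ib genes are close copies of one another, so their separate levels are uncertain. The lower members were Calr and Pdia3, chaperones of the endoplasmic reticulum, with Calr at 91.7 CPM against 385 and 462 and Pdia3 at 116 against 458 and 409.

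Of 9 MHC class II genes tested against conventional dendritic cells, 0 were higher, 5 lower and 4 not called (25.7% of all genes were higher and 24.3% lower). H2-DMa and H2-DMb1, which load peptide onto class II, were lower at 189 CPM against 906 and 90.2 against 1045. H2-Ab1 was lower at 2319 CPM against 7386 (log2 fold change −1.47 ± 0.19, adjusted p = 4.09e-05, edgeR). Cd74, the invariant chain, differed less, at 14736 CPM against 24402 (−0.40 ± 0.13, adjusted p = 0.0177, edgeR). Its call was lost without the library block (adjusted p = 0.141) and without untransduced ACT at day 5 (0.0512). Against macrophages 1 of 8 was higher (H2-DMb2), 4 were lower and 3 not called (26.4% of all genes were higher and 26.9% lower). The log2 fold change of Cd74 against macrophages was 0.01 ± 0.13. March1, a ubiquitin ligase that removes class II from the surface, was at 0 UMIs in the 76 cells and at 67.0 and 38.5 CPM in the other classes.

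Lineage genes and transcription factors were as follows. Of the cDC1 genes, 3 could be tested against conventional dendritic cells and all 3 were lower (Naaa, Wdfy4 and Ppt1, with Naaa at 7.27 CPM against 670). Of the cDC2 and monocyte-derived genes 4 of 6 were lower than in conventional dendritic cells and 7 of 7 lower than in macrophages. Among all genes 24.3% and 26.9% were lower in these comparisons. Ccr2, a receptor for entry from blood, was at 0 UMIs in members and at 436 CPM in macrophages, and was at least 69.6-fold lower than in conventional dendritic cells (304 CPM). Stat4, a signal transducer of IL-12 and type I interferon, was higher at 569 CPM against 13.2 and 3.88 (log2 fold changes 5.57 ± 0.27 and 6.94 ± 0.31, edgeR adjusted p = 3.92e-08 and 1.65e-08). Etv3 (549 CPM against 109 and 155), Batf3 (298 against 122 and 130) and Id2 (1016 against 418 and 227) were higher too. In all, 4 of 9 transcription factors tested were higher, 4 lower and 1 not called against conventional dendritic cells. Against macrophages 5 of 9 were higher, 3 lower and 1 not called. Klf4 was lower in both (53.8 CPM against 158 and 160). Spi1 was lower than in conventional dendritic cells (364 against 602) and Zeb2 than in macrophages (24.7 against 416). Irf8 was higher than in macrophages (1117 CPM against 408) and was not called against conventional dendritic cells (724 CPM). Flt3, the growth factor receptor of dendritic cells, stood at 210 CPM against 86.5, and at 0 UMIs in macrophages.

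Of 10 interferon-response genes, 3 were higher, 3 lower and 4 not called against conventional dendritic cells, near the shares of all genes (25.7% higher and 24.3% lower). Against macrophages 1 was higher, 6 lower and 3 not called (26.4% and 26.9% of all genes). Irf7 was lower at 56.7 CPM against 238 and 208, and Isg15, at 428 CPM, was lower than in macrophages only (816 CPM). Ifit2 and Ifit3 were at 0 UMIs. Of 10 cell cycle genes none could be tested. Mki67 was found in 5 of the 76 cells and Top2a in 3.

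The receptors for the transferred cells' cytokines were examined because IL-2v and IL-33 were delivered in these tumors. Il1rl1, which encodes the IL-33 receptor ST2, and its partner Il1rap were at 0 UMIs in all 76 cells, and so was Il33. Il2ra (CD25) was found in 24 of the 76 cells at 77.1 CPM, against 3.44 in conventional dendritic cells, 1.39 in macrophages and 111 in cells with Cd3e. Il2rb, which IL-2v needs, was found in 1 cell and Il2rg in 57. A UMI of Il2ra was found in 2 of 142 conventional dendritic cells and 5 of 343 macrophages, whose median depths were higher than that of the members. Cytokine receptors went both ways. Against conventional dendritic cells 3 of 11 tested were higher, 2 lower and 6 not called (25.7% of all genes were higher and 24.3% lower). Against macrophages 4 of 13 were higher, 5 lower and 4 not called (26.4% and 26.9% of all genes). Il7r was higher at 255 CPM against 33.8 and 34.4, and Il21r at 204 against 62.4 and 51.3. Il15ra, which presents IL-15 to T cells and stands in the cytokine list, was higher at 162 CPM against 12.0 and 21.9. It was the 1 higher of 2 tested in that list against conventional dendritic cells, with 0 lower. Against macrophages 1 of 3 was higher and 2 lower, Tnf (24.7 CPM against 934) and Il1b (1117 against 4670). Ifngr1 (46.6 CPM against 168 and 131) and Crlf2 (39.3 against 152 and 128) were lower.

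The genes with the highest and lowest fold changes were also named by rule, whether or not they stood in a list. Against conventional dendritic cells these were Gm13546 (340 CPM against 1.15), Adcy6 (224 against 0.573), Nudt17, Mreg (489 against 2.86), Cd63, Cd200, Tnfrsf4 (211 against 1.72), Ccl5, Anxa3 and Socs2, each higher in 6 of 6 libraries, with log2 fold changes of 5.99 to 7.51. Tnfrsf4 encodes OX40, Adcy6 an adenylyl cyclase and Mreg a regulator of melanosome and lysosome traffic. Tnfrsf4 was at 284 CPM in cells with Cd3e. The lowest were Ccr2, Ccl4, Naaa, Anxa1, Ckb, Cd300a, Gm2a, Zfp36l2, Alox5ap and Lyz2, lower in 6 of 6 libraries.

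Against macrophages the highest were Cd200, Gm13546, Tbc1d4, Mreg, Nudt17, Flt3, Serpinb6b, Sema7a, Adcy6 and Spint2. Sema7a, a membrane-anchored semaphorin, stood at 244 CPM against 0.277, and Serpinb6b, a serine protease inhibitor, at 1435 against 2.77. The lowest were Hmox1, Ccr2, Ccl7, Spp1, Ccl12, Sirpb1c, Ccl2, C3ar1, Maf and Trem2, all but Ccl2 at 0 UMIs in the 76 cells. Measured against a floor of 3 UMIs, Ccl7 was at least 129-fold lower, Hmox1, which degrades heme, at least 92.0-fold lower and Trem2 at least 24.6-fold lower.

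Members of different libraries were then compared where both libraries held at least 10. These were orthogonal against untransduced ACT at day 5, and orthogonal ACT at day 12 against day 5 and day 26 against day 12. Orthogonal ACT against PD1d/IL-2v ACT at day 12, with 15 and 9 members, was added after the counts had been seen. The comparisons share libraries and are not independent. In each of them the 2 libraries also carried different codes that begin with NXT, whose meaning the labels do not give. A batch behind these codes and the condition cannot be told apart. A gene was called past the fold when its log2 ratio of CPM + 10 was at least 1 in size with a 95% interval that excluded 0. A summed level cannot tell apart more cells with a gene and more of its RNA per cell, so the number of cells with a UMI is given as well for the genes described at most length.

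At day 5, 248 of 1552 genes (16.0%) were past the fold between orthogonal and untransduced ACT, 125 higher (8.05%) and 123 lower (7.93%). The T-cell marker sum was 8.74 CPM against 113 in this pair, and its part in the differences was not tested. Ccl17, which like Ccl22 acts on CCR4, stood at 0 CPM in non-treated tumors, 69.4 in untransduced ACT, 611 in orthogonal ACT at day 5, 411 in PD1d/IL-2v ACT, 0 in PD1d/IL-33 ACT, 280 in orthogonal ACT at day 12 and 112 at day 26. It was found in 12 of 13 members of orthogonal ACT at day 5 and in 1 of 14 of untransduced ACT (log2 ratio 2.97, 2.02 to 4.01). That 1 cell, with 8 UMIs, was among the cells with the highest doublet scores, and without these Ccl17 was at 0 UMIs in untransduced ACT, with a log2 ratio of 5.91 that then rests on the pseudocount. Among cells with Cd3e, 17 of 7719 had a Ccl17 UMI. Conventional dendritic cells had 1002 CPM of Ccl17 in orthogonal ACT at day 5, in 3 of 18 cells, and 9.67 in untransduced ACT. They had 408 and 128 CPM at days 12 and 26 of orthogonal ACT and 111 in PD1d/IL-2v ACT. Macrophages of the day 5 pair had 31.1 CPM in orthogonal and 0 in untransduced ACT.

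Il12b, the p40 subunit of IL-12 and IL-23, ran the other way. It stood at 1270 CPM in non-treated tumors, 1361 in untransduced ACT, 17.5 in orthogonal ACT at day 5, 481 in PD1d/IL-2v ACT, 399 in PD1d/IL-33 ACT, and 55.9 and 21.4 in orthogonal ACT at days 12 and 26. The 3 orthogonal ACT libraries were thus lower than the other 4 with members. The numbers of cells were small. Il12b was found in 3 of 6 members of non-treated tumors, 5 of 14 of untransduced ACT, 3 of 9 of PD1d/IL-2v ACT and 2 of 2 of PD1d/IL-33 ACT, and in 1 of 13, 4 of 15 and 1 of 17 members of orthogonal ACT at days 5, 12 and 26. In non-treated tumors 1 cell held 38 of 45 UMIs, and in PD1d/IL-2v ACT 1 cell held 28 of 48. A single cell of untransduced ACT held 117 of 157 UMIs, and also 8 UMIs of Cd8a. The log2 ratio at day 5 was −5.64 (−6.84 to −4.21) and −3.98 (−5.24 to −2.49) without that cell. Il12b was in 5 of 7719 cells with Cd3e, whose median depth was lower than that of members. The part of RNA from other cells in the members' Il12b was not tested. Il12a was found in 1 of the 76 cells, and Il23a and Il10 in none.

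Ccl24, an eosinophil chemoattractant, was found in 5 of 13 members of orthogonal ACT at day 5 (3092 CPM) and in 0 of 14 of untransduced ACT, at least 119-fold higher against a floor of 3 UMIs. The 5 cells held 125, 94, 70, 59 and 6 UMIs. At day 12 it was at 487 CPM in 4 of 15 members and at day 26 at 26.7 CPM in 1 of 17. It was at 0 in non-treated tumors and PD1d/IL-33 ACT and at 30.1 CPM in PD1d/IL-2v ACT. Macrophages of the same orthogonal ACT libraries stood at 12283, 4511 and 96.8 CPM, conventional dendritic cells at 820, 277 and 5.55 CPM and cells with Cd3e at 257, 16.8 and 3.73 CPM. In PD1d/IL-2v ACT conventional dendritic cells had 596 CPM of Ccl24 and macrophages 230. In orthogonal ACT at day 5, 55 of 806 cells with Cd3e had a Ccl24 UMI. The members' C1qa, C1qb and C1qc were at 0, and the part of macrophage RNA in their Ccl24 was not tested. Il12b and Ccl24 were found together in 0 of the 76 cells, of which 19 had Il12b and 11 Ccl24. Ccl17 was in 31 of the 76 and in 9 of the 11 with Ccl24. Libraries differed in these genes, with Ccl24 in 5 and Il12b in 1 of 13 members of orthogonal ACT at day 5. Whether the overlaps go beyond such differences was not tested.

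**Figure D3:**
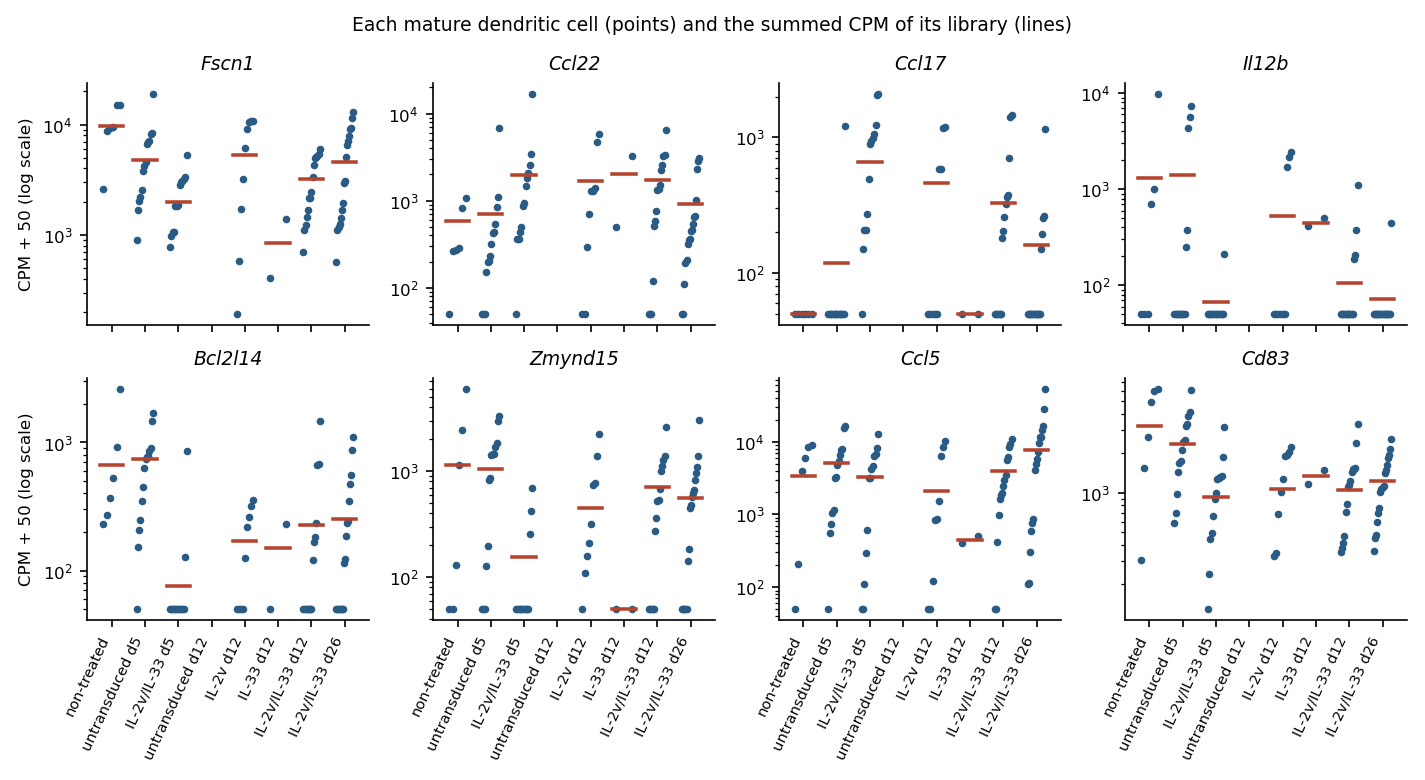
Level of 8 genes in each mature dendritic cell (points, CPM + 50, log scale) and from the summed UMIs of its library (red lines), by library (x axis, names without PD1d). Untransduced ACT at day 12 has no members. Ccl17 is found in 12 of 13 cells of orthogonal ACT at day 5 and 1 of 14 of untransduced ACT, and Bcl2l14 in 2 of 13 and 13 of 14.

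Of 17 maturation genes tested at day 5, 1 was higher and 2 lower, near the shares of all genes (8.05% and 7.93%), with a median log2 ratio of −0.47 against −0.02 over all genes. Bcl2l14, of the BCL2 family, stood at 621 CPM in non-treated tumors, 694 in untransduced ACT, 26.2 in orthogonal ACT at day 5, 120 in PD1d/IL-2v ACT, 99.7 in PD1d/IL-33 ACT, and 176 and 203 in orthogonal ACT at days 12 and 26. It was in 13 of 14 members of untransduced ACT and 2 of 13 of orthogonal ACT at day 5 (log2 ratio −4.28, −5.55 to −2.98). Zmynd15 followed the same order at day 5, with 988 CPM in 11 of 14 members and 105 CPM in 3 of 13 (−3.12, −4.00 to −2.32). Marcks, which links actin to the membrane, was higher (1319 against 494 CPM, 1.40, 0.96 to 1.85). Fscn1 itself was 4700 CPM in untransduced ACT and 1922 in orthogonal ACT at day 5, and 9568 in non-treated tumors.

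Of 6 costimulatory ligands tested at day 5, 0 were higher and 3 lower (8.05% and 7.93% of all genes), with a median log2 ratio of −1.18. Cd83 stood at 3161 CPM in non-treated tumors, 2324 in untransduced ACT and 882 in orthogonal ACT at day 5, and between 1007 and 1296 in the 4 later libraries (−1.39, −1.73 to −1.06 at day 5). Cd80 stood at 395, 321 and 105 CPM in the day 5 libraries in the same order (−1.53, −2.48 to −0.63), then 301 in PD1d/IL-2v ACT, 0 in PD1d/IL-33 ACT, and 104 and 90.9 in orthogonal ACT at days 12 and 26. Tnfsf4 (OX40 ligand) was in 6 of 14 members of untransduced ACT (208 CPM) and at 0 UMIs in orthogonal ACT at day 5, at least 7.94-fold lower. Cd40 and Cd86 were not past the fold. Pdcd1lg2 was lower (114 against 295 CPM, −1.30, and −0.98 without the cells with the highest doublet scores) and Cd274, at 795 against 633 CPM, was not past the fold.

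**Figure D4:**
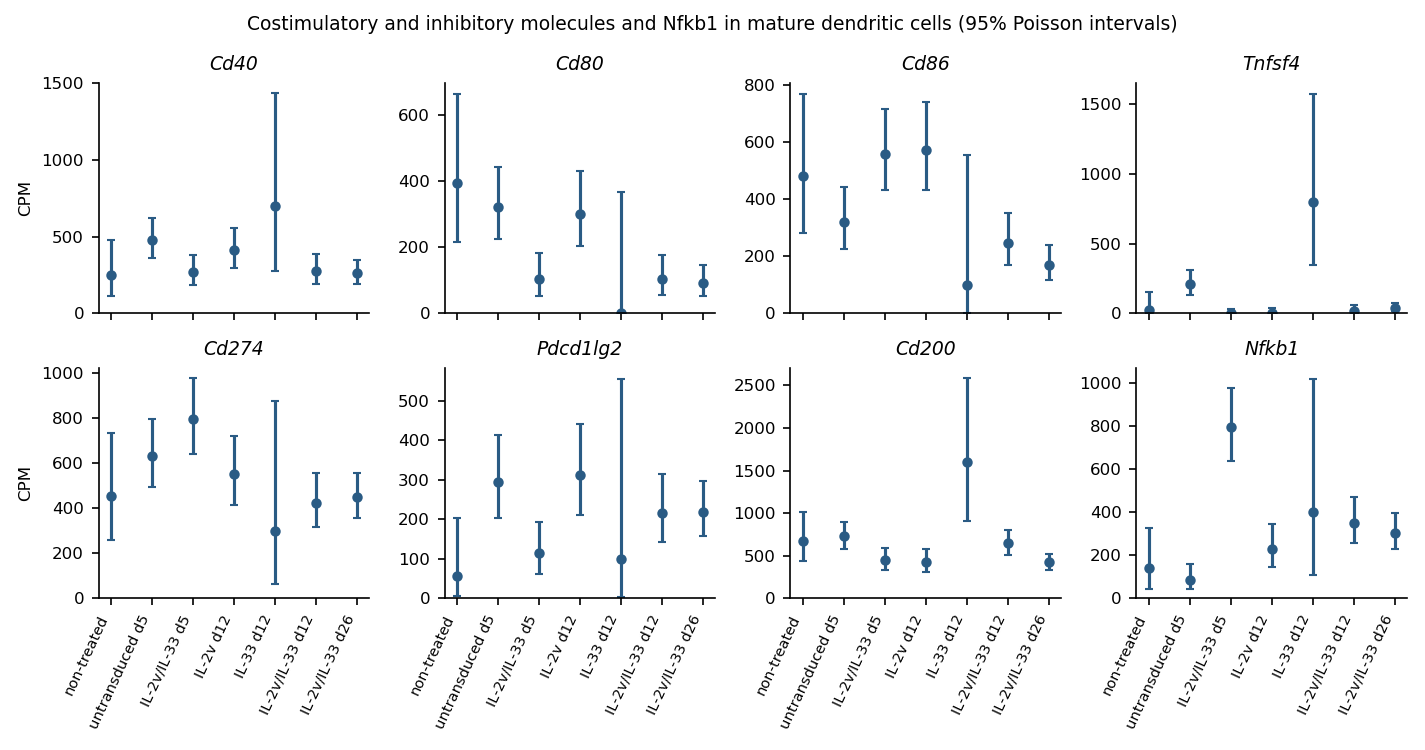
Level of costimulatory and inhibitory molecules and Nfkb1 (y axis, CPM of summed UMIs) in mature dendritic cells of the 7 libraries with members (x axis, names without PD1d), with 95% Poisson intervals. Cd80 stands at 321 CPM in untransduced ACT and 105 in orthogonal ACT at day 5, and Nfkb1 at 86.7 and 795. PD1d/IL-33 ACT has 2 cells and wide intervals.

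Of 16 NF-kB genes tested at day 5, 2 were higher, 2 lower and 12 not past the fold (8.05% and 7.93% of all genes were higher and lower), with a median log2 ratio of −0.27. Nfkb1, the canonical p105/p50 subunit, stood at 141 CPM in non-treated tumors, 86.7 in untransduced ACT, 795 in orthogonal ACT at day 5, 231 in PD1d/IL-2v ACT, 399 in PD1d/IL-33 ACT, and 352 and 305 at days 12 and 26 of orthogonal ACT. It was in 12 of 13 and 7 of 14 members of the day 5 pair (log2 ratio 3.06, 2.19 to 4.01). Nfkb2 ran opposite, at 408 CPM in untransduced and 166 in orthogonal ACT (−1.25, −2.04 to −0.50). It stood at 649 CPM in non-treated tumors, 361 in PD1d/IL-2v ACT, 99.7 in PD1d/IL-33 ACT, and 200 and 235 in the later orthogonal ACT libraries. Traf1 was lower (865 against 2081 CPM, −1.26, −1.60 to −0.92) and Tnfaip3 was higher and just past the fold (271 against 130 CPM), with a log2 ratio of 0.97 with TMM factors.

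Other genes past the fold at day 5 were Stat5a (210 against 34.7 CPM, in 9 of 13 and 2 of 14 members), Batf3 (446 against 165), Csf2rb (358 against 139) and Isg15 (690 against 165), which were higher, and Cxcl16 (376 against 1162), Tgfb1 (17.5 against 156, in 1 and 8 members) and Csf2ra (87.4 against 269), which were lower. Irf8 was lower at 734 against 1717 CPM (−1.22, −1.59 to −0.85), but −0.48 as a mean over cells and −0.79 without the member with the most UMIs. None of 13 MHC class I genes was past the fold, and H2-DMb1 was the 1 of 9 class II genes that was lower. These counts were near the shares of all genes (8.05% higher and 7.93% lower). The highest ratios by rule were Ccl24, Atp11a, Sphk1, Selm and Nfkb1, and the lowest Il12b, Tnfsf4, Bcl2l14, Zmynd15 and Tmem19. Sphk1, a sphingosine kinase, and Atp11a, a phospholipid flippase, were at 175 CPM each and at 0 UMIs in untransduced ACT, at least 6.72-fold higher.

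Within orthogonal ACT, 141 of 1562 genes (9.03%) were past the fold at day 12 against day 5, 63 higher (4.03%) and 78 lower (4.99%). With TMM factors 88 were higher and 66 lower, so which direction held more genes depends on the scaling. The T-cell marker sum was 32.0 CPM against 8.74 in this pair. The monocyte and macrophage sum was 7.99 against 43.7, and the part of either was not tested. Of 17 maturation genes 5 were higher and 0 lower. These were Zmynd15 (663 against 105 CPM, log2 ratio 2.55, 1.74 to 3.45), Bcl2l14 (176 against 26.2), Cd63 (1326 against 437), Nudt17 (280 against 105) and Anxa3 (487 against 236). Cxcl16 was higher at 1159 against 376 CPM (1.60, 1.11 to 2.11), and Birc2 at 599 against 280. Nfkb1 (352 against 795 CPM), Ccl17 (280 against 611) and Cd86 (248 against 559) were lower. The counts of maturation genes were 5 and 0 with TMM factors too. Nudt17, Anxa3, Birc2, Nfkb1, Ccl17 and Cd86 each lost the fold without the member with the most UMIs, and Ccl17 also with TMM factors (−0.98).

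Of 6 interferon-response genes 3 were lower and 0 higher at day 12 (4.99% and 4.03% of all genes). Their median log2 ratio was −0.96 against −0.05 over all genes. Gbp2 stood at 152 against 681 CPM in 9 of 15 and 9 of 13 members (−2.10, −2.84 to −1.40), Irf1 at 152 against 411 and Isg15 at 272 against 690 (−1.31, and −0.60 as a mean over cells). Cxcl9, an interferon-induced ligand of CXCR3, was at 16.0 against 349 CPM in 2 of 15 and 4 of 13 members (−3.79, −4.99 to −2.33). H2-Ab1 was lower at 1007 against 2306 CPM (−1.19, and −0.76 without the member with the most UMIs of the gene in the library where it was higher). The highest ratios were Chpt1, Zmynd15, Atp2b1, Bcl2l14 and Gsto1, with Chpt1 in 15 of 15 members against 4 of 13, and the lowest Plac8, Cxcl9, Ccl24, Nfkbiz and Pld4.

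At day 26 against day 12, 229 of 1949 genes (11.7%) were past the fold, 123 higher (6.31%) and 106 lower (5.44%). The T-cell marker sum was 102 CPM against 32.0, and in members with MHC class II and no T-cell genes 98 were higher and 81 lower. The monocyte and macrophage marker sum was 74.8 CPM against 7.99, and its part in the differences was not tested. Of 6 interferon-response genes 2 were higher and 0 lower, and of 8 MHC class II genes 2 were higher and 0 lower, with medians of 0.69 and 0.80 against 0.04 over all genes. This comparison shares the day 12 library with the one before. Cxcl9 stood at 240 against 16.0 CPM in 6 of 17 and 2 of 15 members (3.27, 1.82 to 4.46), Irf1 at 395 against 152, H2-DMb2 at 305 against 47.9 and H2-Ab1 at 2175 against 1007 (1.10, 0.82 to 1.40, and 0.59 without the cells with the highest doublet scores). Irf7, at 112 CPM in 7 of 17 members and 0 UMIs at day 12, was at least 4.68-fold higher. Irf8 (652 against 1590 CPM), Marcks (561 against 1263), Flt3 (155 against 336) and Ccl17 (112 against 280) were lower, but each had a log2 ratio under 1 in size without the member with the most UMIs. That of Irf1 was 0.89 without the cells with the highest doublet scores. Ccl5 stood at 7530 against 3883 CPM, a log2 ratio under the fold.

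The highest ratios at day 26 were Ly6a, Gadd45g, Irf7, Igfbp4 and Ly6e, and the lowest Apol7c, Ccl24, Rhoc, Tm4sf5 and Nabp1. Gadd45g, of a stress-inducible family, stood at 214 against 7.99 CPM, in 8 of 17 and 1 of 15 members. Igfbp4 was in 4 of 17 members and 1 of 15 (log2 ratio 3.57, and 0.58 without the member with the most UMIs). Apol7c stood at 687 CPM in 5 of 15 members at day 12 and at 21.4 CPM in 1 of 17 at day 26. A single cell held 60 of the 86 UMIs at day 12, and the log2 ratio of Apol7c was −4.47, and −2.99 without it. Of the 61 Ccl24 UMIs at day 12, 45 were in 1 cell, and its ratio was −3.76, and −2.03 without it. Apol7c was at 201 CPM in orthogonal ACT at day 5, at 17.3 in untransduced ACT and at 0 in the remaining 3 libraries with members.

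Orthogonal ACT against PD1d/IL-2v ACT at day 12 had 285 of 1471 genes past the fold (19.4%), 123 higher (8.36%) and 162 lower (11.0%). Without the member with Cd14 there were 109 higher (7.90%) and 132 lower (9.57%) of 1379. MHC class II was lower in 5 of 8 genes tested and interferon-response genes in 5 of 6, with 0 higher in either and medians of −1.17 and −1.67 against 0.02 over all genes. Without the member with Cd14 these counts were again 5 of 8 and 5 of 6, with medians of −1.15 and −1.54. Cd74 stood at 8814 against 18702 CPM (−1.08, −1.19 to −0.98, and −0.76 without the member with the most UMIs), and Irf1 at 152 against 682 (−2.10, −2.85 to −1.39). Il12b was lower (55.9 CPM in 4 of 15 members against 481 in 3 of 9, −2.90, and −1.87 without the member with the most UMIs). Il1b had a log2 ratio of −3.00, and −0.54 without the member with Cd14. Cxcl2 and Ier3 had log2 ratios of −5.63 and −5.49, and −0.79 and −0.93 without the member with the most UMIs. Of 127 Cxcl2 UMIs in PD1d/IL-2v ACT, 124 were in the cell with Cd14. Tbc1d4 (1430 against 471 CPM), Birc2 (599 against 120), Etv3 (783 against 231) and Rel (671 against 291) were higher, with Rel at 1.18, and 0.96 as a mean over cells.

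The highest ratios in that comparison were Apol7c, Ccl24, Filip1l, Map3k1 and Rassf3. Map3k1, a kinase upstream of JNK, was in 13 of 15 members against 2 of 9, and Filip1l in 10 of 15 against 1 of 9. The lowest were Ly6e, Cxcl2, Plac8, Ier3 and Ly6i. Ly6e was in 6 of 9 members of PD1d/IL-2v ACT (742 CPM) and at 0 UMIs in orthogonal ACT, at least 30.9-fold lower, while cells with Cd3e had 1325 CPM of it. Plac8 had a log2 ratio of −5.56, and −3.16 without the cell with Cd14. Among the genes named by rule or listed and past the fold, only Plac8 and Il1b left their interval without that cell, while Cxcl2, Cxcl9, Ier3, Ly6i and Tgfb1 then fell under the minimum for the test.

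Members varied widely within libraries. After each cell was thinned to 2000 UMIs, class II (H2-Aa, H2-Ab1, H2-Eb1 and Cd74 together) ranged from 2 to 236 UMIs per cell with a median of 29, and Ccl5 from 0 to 89 with a median of 6. Across the 76 cells the Spearman correlation of the pair was −0.37, and within the 4 libraries with at least 10 members it was −0.19, −0.39, −0.43 and −0.44. In the 38 cells with class II at or under the median, Ccl5 had a median of 11 UMIs (0 to 89), and in the 38 above it 2 (0 to 65). The ranges overlapped fully. Class II also went with depth, with a correlation of 0.59 with total UMIs, and these cells share libraries and depth, so the values are given as a description. Fscn1 and Ccr7, both gate genes, correlated at 0.17, and class II and Il4i1 at 0.08.

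**Figure D5:**
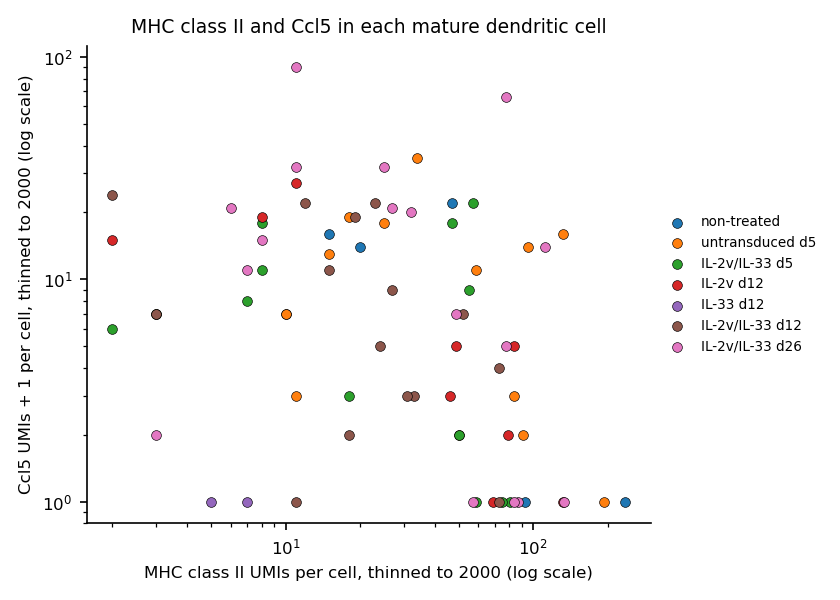
MHC class II UMIs (x axis, log scale) and Ccl5 UMIs + 1 (y axis, log scale) in each of the 76 mature dendritic cells after thinning to 2000 UMIs, coloured by library (names without PD1d). Cells with little class II held more Ccl5 on balance, with a Spearman correlation of −0.37, and 16 cells have no Ccl5 UMI.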

How the data were processed

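The deposited values are raw UMI counts for each gene in each barcode, which the authors obtained with Cell Ranger from 8 libraries in 1 aggregate, without normalization. The submitters' processing notes name version 2.2.0, GRCm38 and bcl2fastq, whereas the study's methods name a later Cell Ranger version, and which one made these files was not settled. The matrix holds 27998 genes, 15700 barcodes and 98669511 UMIs. Libraries were assigned by barcode suffix and the aggregation table, which holds 5 different codes that begin with NXT. Depth per library was 1805961 UMIs in non-treated tumors, 15572622 and 1387032 in untransduced ACT at days 5 and 12, 17343794 in PD1d/IL-2v ACT, 4810085 in PD1d/IL-33 ACT, and 17851327, 14981578 and 24917112 in orthogonal ACT at days 5, 12 and 26.

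Cells were kept with 500 to 6000 genes, 2000 to 40000 UMIs, 5% to 60% ribosomal and less than 10% mitochondrial UMIs, the filter of the study's methods. The classes compared had the same filter and exclusions, and fewer than 2 UMIs of Fscn1. Conventional dendritic cells had fewer than 3 UMIs of C1qa, C1qb and C1qc and at least 2 of Cd209a or of Xcr1 and Clec9a, and macrophages the reverse. Scrublet (scanpy 1.11.5) was run on the cells of all libraries together, with an expected rate of 6%. It called 10 cells (0.0780%), far under that rate, so its calls were not used and no doublets were removed. An alternative dropped the 770 cells (6%) that scored highest. No barcode sequence was shared between members, and 1 member's sequence also occurs in another library.

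CPM were computed from summed UMIs, with exact 95% Poisson intervals, and library ratios used genes with at least 20 UMIs and a UMI in at least 5 members. Class comparisons used edgeR 4.0.16 (R 4.3.3) with TMM, filterByExpr, a library block and Benjamini-Hochberg adjustment, and DESeq2 1.42.0 as an alternative. Each p measures the spread between these libraries of pooled tumors. The scripts were tested on simulated counts.

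Genes named were those of 14 lists, the 5 highest and 5 lowest ratios of each library comparison, and the 10 highest and 10 lowest class fold changes with at least 50 CPM and the same sign in every library. The rule, members and lists were chosen with earlier results of these data known. Alternatives covered the gate, doublets, low-count filters, pseudocount, scaling, DESeq2, single cells and single libraries. The comparison with PD1d/IL-2v ACT, and leaving out the member with Cd14, were added after seeing the data.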

Additional observations from a re-analysis of the deposited data

Results flagged for a closer look

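Barcodes that fail the cell filter lie outside every comparison, and 7 of 2872 of them met the gate in all other respects, where no control gives a level to expect. Of these 7, 5 had under 2000 UMIs and 3 had 10% or more mitochondrial UMIs. They came from non-treated tumors (2), untransduced ACT at day 5 (1), PD1d/IL-2v ACT (1), and orthogonal ACT at day 5 (1) and day 12 (2). Their summed level of Il4i1 was 1897 CPM, against 788 in members with more than 5 Fscn1 UMIs, and their Ccr7 was 6606 CPM against 4364.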

How the results depend on the processing

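Among called genes that were listed or named by rule, none changed sign under an alternative in which it was still tested. Other called genes were not checked for sign. Which direction held more calls did change. For day 12 against day 5 it turned with TMM factors (88 higher and 66 lower, in place of 63 and 78). For orthogonal against untransduced ACT at day 5 (125 and 123) it turned with TMM factors (119 and 130), as a mean over cells (103 and 111), without high doublet scores (110 and 115) and at 50 UMIs (41 and 48). For orthogonal ACT against PD1d/IL-2v ACT (123 and 162) it turned without the member with the most UMIs (89 and 76) and with the stricter gate of MHC class II and no T-cell genes (99 and 93). Against conventional dendritic cells (505 and 477) it turned with DESeq2 (677 and 846), RLE size factors (479 and 541), no filter (878 and 1511), the stricter gate (413 and 416), without high doublet scores (426 and 439), and when non-treated tumors, PD1d/IL-2v ACT or orthogonal ACT at day 26 was left out. All 40 shares under alternatives stayed within the interval of the main value, while the number of members ran from 54 (MHC class II and no T-cell genes) to 77 (gate after thinning). Of 134 alternative counts of genes, 103 stayed within 1.5 times the main count and 31 did not. For the latter the cause was not tested, other than that a minimum of 50 or 10 UMIs, no filter, or leaving out cells changes the genes or cells that enter.

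For orthogonal against untransduced ACT at day 5, the 125 genes higher became 202 at a minimum of 10 UMIs, 41 at 50, and 75 without, for each gene, the member with the most UMIs of it in the library where it was higher, and the 123 lower became 48 at 50 and 54 without that member. For orthogonal ACT at day 12 against day 5, 63 higher became 34 at a pseudocount of 50 CPM, 105 at 10 UMIs, 21 at 50 and 26 without that member, and 78 lower became 141, 27 and 41 at 10 UMIs, 50 UMIs and without that member. For day 26 against day 12, 123 higher became 66 at a pseudocount of 50 CPM, 44 at 50 UMIs and 67 without that member, and 106 lower became 55 and 36 likewise, 168 at 10 UMIs and 53 without that member. For orthogonal ACT against PD1d/IL-2v ACT, 123 higher became 192 at 10 UMIs and 52 at 50, and 162 lower became 65 at 50 UMIs, 76 without that member and 93 with the stricter gate. That gate left 5 members of PD1d/IL-2v ACT, where a minimum of 5 was used. It was not run for the day 5 pair, which kept the minimum of 10, since it left 8 members of untransduced ACT.

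Against conventional dendritic cells, 505 higher became 878 without a filter, and 477 lower became 846 with DESeq2 and 1511 without a filter. Against macrophages, 525 higher became 888 with DESeq2 and 990 without a filter, and 535 lower became 1141 and 1953. TMM scaling moved the median ratio over genes for day 12 against day 5 from −0.05 to 0.07. DESeq2 moved the median log2 fold change to −0.15 and −0.19, and no filter to −0.22 and −0.34. Leaving out each library in turn gave 373 to 551 higher and 395 to 599 lower against conventional dendritic cells, and 405 to 698 and 426 to 765 against macrophages. Without the member with Cd14 the counts were 508 and 495, and 523 and 568. Of 2876 alternative values of single genes between classes, 100 lost the call, among them Nfkb1, Irf1, Cd74, Cd83, H2-Eb1, Ifi47 and Tap1 against conventional dendritic cells and Cflar, H2-T23, Il2rg, Ccl17, Cd274, Pdcd1lg2, Isg15, Gbp2 and Il10ra against macrophages. No paired analysis was possible because each condition and day is 1 library, and the class comparisons already have the library as a block.

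With 0 to 17 members per library, depth limits most of all untransduced ACT at day 12 (no member in 202 cells), PD1d/IL-33 ACT (10034 UMIs in 2 members) and non-treated tumors (35430 UMIs in 6).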

Other observations

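In the 2 members of PD1d/IL-33 ACT, Ccr7 stood at 8372 CPM, Ccl22 at 1993, Stat4 at 2292, Irf8 at 3388 and Il12b at 399, with Cd74 at 1196 and H2-Ab1 at 0. In the 6 members of non-treated tumors, Ccr7 stood at 6012 CPM, Stat4 at 960, Traf1 at 1750, Nfkbia at 2681 and Cd74 at 23539, with Ccl17 and Ccl24 at 0.

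Other listed genes were found in part of the members. Aldh1a2, which makes retinoic acid, was found in 7 of the 76 cells (26.2 CPM) and at 0 UMIs in conventional dendritic cells and macrophages. Cd70 was found in 8 cells and also at 0 UMIs in both classes. Il15 was found in 35 cells (71.3 CPM against 10.9 and 29.1), Ebi3 in 19, Il6 in 8 and Fas in 40 (98.9 CPM).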
